A study of Mus musculus with 8 samples.

Results

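Schwann cell and myelin markers were examined as 7 genes chosen by symbol, Mbp, Sox10, S100b, Cnp, Gfap, Ngfr and Pmp22, and all 7 were present among the 18877 gene symbols of the table. They were compared in activated muscle stem cells (ASCs), the muscle stem cells (MuSCs) that have left quiescence after injury. The wild-type group and the mfn2-/- group held 4 libraries each, numbered as replicates 1 to 4. Mice of both groups were adult and carried mito-Dendra2, a fluorescent protein of mitochondria, switched on through Pax7-Cre(ERT2). This driver acts in cells that express the stem cell factor Pax7, and in the mfn2-/- group it also acted on a floxed allele of Mfn2, the gene of the mitochondrial fusion protein mitofusin 2. All animals received tamoxifen at 75 mg/kg per day for 5 days and then 50 uL of 1.2% BaCl2 into the tibialis anterior muscle. Living cells that were Dendra2+ and CD34- were sorted at 2 days post injury. The labels do not say whether replicates came from separate animals, so p-values measure the spread between these libraries, which may be partly technical. Both groups held libraries with and without reads of Y-linked genes, so the 4 libraries of a group cannot all come from 1 animal.

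Schwann cells are the glia of peripheral nerves and lie along the motor axons that run through muscle. They wrap large axons in myelin, a stack of compacted membrane, and bundle small axons without it. After nerve damage they lose the myelin program and return to an immature state with high levels of the neurotrophin receptor p75, which Ngfr encodes. Muscle stem cells belong to another lineage, so that in a sorted stem cell population these genes serve as markers of nerve-derived RNA as well as genes that other cells can use at a low level. In bulk RNA, fewer cells of a type and less RNA per cell cannot be told apart.

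The libraries held 1880464 to 7508215 reads assigned to genes, and the shallowest were wild-type replicate 1 and mfn2-/- replicate 4. With 2269009 reads, mfn2-/- replicate 4 detected 9646 genes. Wild-type replicate 1 detected 12613 genes from fewer reads, and the remaining libraries detected 13211 to 15270. Reads from 4 Y-linked genes were found in replicates 3 and 4 of the wild-type group and in replicates 1 and 2 of the mfn2-/- group, and none in the other 4 libraries, so each change is also given within these 2 kinds of library. Mfn2 itself averaged 229 in the wild-type group and 126 in the mfn2-/- group, as normalized reads (log2 change -0.88, limma adjusted p 0.0848). A normalized count of the whole gene cannot tell a deleted transcript from an intact one. Of the 7 muscle stem cell markers, Myod1 and Des were called higher in mfn2-/- ASCs, 0 were called lower, and the other 5, Pax7 included, were not called.

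Of the 7 Schwann cell and myelin genes, Ngfr was the only gene whose change passed the test. It was 9.95-fold lower in the mean of mfn2-/- ASCs, while the myelin genes Pmp22, Mbp and Cnp did not pass the test. Sox10, S100b and Gfap were too weakly expressed to be tested with the other genes. A gene was tested when its mean over the 8 libraries was at least 10 normalized reads, which left 4 of the 7 among 11754 tested genes. With limma on log2(value + 1) and Benjamini-Hochberg adjustment over all tested genes, 1 of these 4 was called lower (adjusted p under 0.05) and 0 were called higher. Over all tested genes 6.36% were called lower and 3.99% higher, 10.4% together. edgeR on the whole reads behind the values also called 1 of the 4 lower and 0 higher (5.59% and 4.26% of all tested genes, 9.85% together), and DESeq2 did the same (9.33% and 5.54%, 14.9% together). Groups without overlap were found for 1 of the 4, in the lower direction, against 12.2% of all tested genes in that direction, 7.36% in the other and 19.5% in both. The median log2 change of the 4 tested genes was -0.37, beside -0.16 for all tested genes. Without mfn2-/- replicate 4 the median of all tested genes was -0.018.

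**Figure D1:**
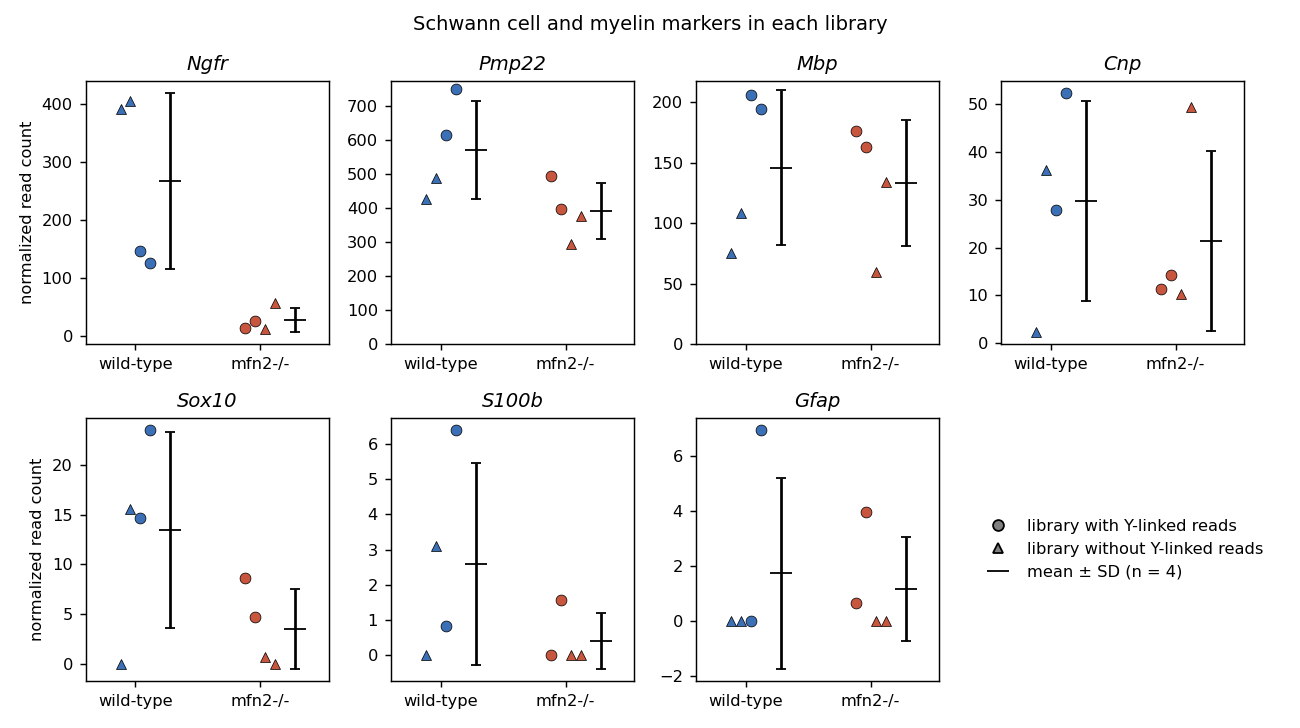
Normalized read count (vertical axis) of each of the 7 marker genes in the 4 wild-type and 4 mfn2-/- libraries. Circles are libraries with Y-linked reads, triangles are libraries without them, and bars give the mean ± SD (n = 4). Ngfr alone shows groups that do not overlap, with wild-type values of 126 to 404 and mfn2-/- values of 11.8 to 56.8.

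Ngfr encodes the p75 neurotrophin receptor, which binds all neurotrophins and their precursors and marks immature and denervated Schwann cells, and which is also used by some mesenchymal cells. It measured 391, 404, 145 and 126 normalized reads in wild-type replicates 1 to 4. In mfn2-/- replicates 1 to 4 it measured 13.3, 25.3, 11.8 and 56.8. Every wild-type library lay above every mfn2-/- library. The means were 267 ± 152 and 26.8 ± 20.9 (SD, n = 4 each), from 975 and 99 whole reads. On the log2 scale the change was -3.34 (SE 0.64, 95% interval -4.73 to -1.95, limma adjusted p 0.00531), and a two-sided exact permutation test gave p = 0.0286, the smallest that 4 against 4 libraries allow. Of all tested genes, 4.65% had a more negative change.

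Within the wild-type group Ngfr fell into a high and a low pair. The libraries without Y-linked reads held 391 and 404 normalized reads and those with such reads 145 and 126. The change was -3.87 in the libraries without Y-linked reads and -2.81 in those with them, with 2 libraries per group in each. The difference between these 2 changes was 1.06 on the log2 scale and did not pass (limma interaction, adjusted p 0.733). The call of Ngfr held in all 22 alternatives, with log2 changes from -3.79 to -2.88 and a highest adjusted p of 0.0287.

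Ngfr lies on chromosome 11 of GRCm38 (95568818 to 95587735, minus strand, GENCODE M21), and no other annotated gene overlaps it. Its promoter is printed because Ngfr was the marker gene whose call passed. The window runs from 250 bases before to 50 bases after the transcription start, at chr11:95587649-95587948 on the minus strand of GRCm38.p6 (RefSeq). Capitals mark the GC box GGGCGG on either strand, where the reverse strand reads CCGCCC.
Ngfr promoter: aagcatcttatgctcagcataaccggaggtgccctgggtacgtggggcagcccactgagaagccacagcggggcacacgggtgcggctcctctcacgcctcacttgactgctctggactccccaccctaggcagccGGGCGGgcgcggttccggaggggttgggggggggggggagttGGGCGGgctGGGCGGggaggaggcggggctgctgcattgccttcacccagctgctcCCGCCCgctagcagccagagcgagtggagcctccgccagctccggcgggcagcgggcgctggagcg
The window had a GC content of 71.7% and 23 CpG dinucleotides, beside medians of 52.7% and 7 over 32851 promoter windows of the same length. It held the GC box 4 times, and 35.7% of all windows held it at least once. The E-box CANNTG was found 2 times (72.3% of windows hold it), ACGTG 1 time (19.6%), and TATAAA 0 times (13.6%). Promoter windows were matched for 5 of the 7 genes. Among the others, Cnp had 2 GC boxes, Gfap and S100b had 0, and 2 of the 4 alternative windows of Pmp22 held it. These are matches of letters and carry no measurement of binding.

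Pmp22 encodes a membrane protein of compact peripheral myelin that was first found as a growth arrest gene of fibroblasts. It was the most abundant of the 7, with 428, 487, 617 and 751 normalized reads in wild-type replicates 1 to 4. The mfn2-/- replicates 1 to 4 held 493, 399, 293 and 376. The groups overlapped, since mfn2-/- replicate 1 exceeded wild-type replicates 1 and 2. The means were 571 ± 144 and 390.3 ± 82.3, a log2 change of -0.54 (SE 0.25, 95% interval -1.07 to -0.01). The limma p was 0.0475 before and 0.195 after adjustment over all genes and so missed the threshold, with p = 0.0857 by exact permutation. The change was -0.62 in libraries with Y-linked reads and -0.46 in those without. With library weights, which count noisier libraries less, the adjusted p of Pmp22 was 0.0115. That fit called 25.8% of all tested genes, 13.9% lower and 11.9% higher.

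Mbp encodes myelin basic protein, which holds the cytoplasmic faces of the myelin membrane together, and its locus also produces Golli transcripts, which immune and other cells use. It measured 75.0, 109, 206 and 194 normalized reads in wild-type replicates 1 to 4 and 177, 164, 59.7 and 134 in mfn2-/- replicates 1 to 4. The groups overlapped almost fully (146 ± 64.1 and 133 ± 52.3). Mbp changed by -0.12 on the log2 scale (SE 0.46, 95% interval -1.13 to 0.88, limma adjusted p 0.895), and by 0.051 with quantile normalization. All 4 libraries with Y-linked reads, at 164 to 206, lay above all 4 without, at 59.7 to 134, whatever their genotype. This split was picked out after the values were seen, and its share among all tested genes was not counted. The libraries without Y-linked reads include wild-type replicate 1 and mfn2-/- replicate 4, the shallowest of their groups.

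Cnp encodes the phosphodiesterase of non-compact myelin. It measured 2.27, 36.3, 27.8 and 52.4 normalized reads in wild-type replicates 1 to 4, and 11.3, 14.2, 10.3 and 49.5 for the mfn2-/- replicates in the same order. The lowest value, in the shallow wild-type replicate 1, was a single read, and the highest mfn2-/- value came from the shallow replicate 4. The change in log2 units was -0.20 (SE 1.12, limma adjusted p 0.932), with a wide 95% interval from -2.61 to 2.21. Libraries with Y-linked reads gave -1.52 and those without gave 1.11, and the difference of -2.63 between them did not pass (limma interaction, adjusted p 0.643). Without the shallowest library of each group, an alternative chosen after seeing the data, the change was -1.58 (limma adjusted p 0.166). Cnp overlaps Dnajc7 on the opposite strand. Dnajc7 measured 142 ± 39.8 and 118 ± 60.5 normalized reads, and whether reads were counted by strand is not given in the sources used here, so Cnp is uncertain.

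The limit of detection was 3 reads, or 1.60 to 6.82 normalized reads per library. Sox10 lay above it in 5 libraries, Gfap in 2 and S100b in 1. Sox10, the transcription factor that defines the Schwann cell lineage, is the most specific of the 7. It gave 0, 15, 18 and 44 whole reads in wild-type and 13, 6, 1 and 0 in mfn2-/- replicates 1 to 4. In normalized reads these were 0, 15.6, 14.7 and 23.5 against 8.67, 4.74, 0.737 and 0. Of the wild-type libraries, 3 exceeded every mfn2-/- library, and the shallowest wild-type library had 0 reads. The means were 13.4 ± 9.80 and 3.54 ± 4.01, a log2 difference of -1.51 (exact permutation p = 0.286, n = 4 per group). The difference was -1.40 in libraries with Y-linked reads and -1.63 in those without.

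S100b encodes a calcium-binding protein abundant in Schwann cells and also present in cartilage and fat. It gave 0, 3, 1 and 12 reads in wild-type and 0, 2, 0 and 0 reads in mfn2-/- replicates 1 to 4, which is 18 in all. Only wild-type replicate 4 lay above the limit of detection (exact permutation p = 0.257 for a log2 difference of -1.11, n = 4 per group). The gene overlaps Dip2a on the opposite strand, which was far higher at 159 ± 32.9 and 104 ± 18.3 normalized reads. Gfap, the intermediate filament of astrocytes and non-myelinating Schwann cells, gave 0, 0, 0 and 13 reads in wild-type and 1, 5, 0 and 0 in mfn2-/- libraries. Its groups overlapped (log2 difference 0.014, exact permutation p = 1.00, n = 4 per group). A difference in S100b or Gfap was not detectable at this depth.

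Levels of different genes were compared as normalized reads per kb of annotated exon. In wild-type ASCs the order was Pmp22 (242 ± 61.1), Ngfr (77.4 ± 44.0), Mbp (17.2 ± 7.57), Cnp (8.15 ± 5.75), Sox10 (4.41 ± 3.21), S100b (1.74 ± 1.93) and Gfap (0.412 ± 0.823). From Mbp downwards the ranges of mean ± SD of neighbouring genes overlapped. In mfn2-/- ASCs the order was Pmp22 (166 ± 35.0), Mbp (15.8 ± 6.18), Ngfr (7.78 ± 6.06), Cnp (5.86 ± 5.18), Sox10 (1.16 ± 1.31), Gfap (0.274 ± 0.448) and S100b (0.266 ± 0.532). The mean of Ngfr stood above that of Mbp in wild-type and below it in mfn2-/- ASCs, where the spread of Ngfr overlapped those of both Mbp and Cnp. The summed share of the 7 genes in a library was 0.0249% ± 0.00326 for the wild-type group and 0.0143% ± 0.00295 for the mfn2-/- group (SD, n = 4, a description with no test), and Pmp22 alone made up 46.2 to 78.0% of that sum in single libraries.

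**Figure D2:**
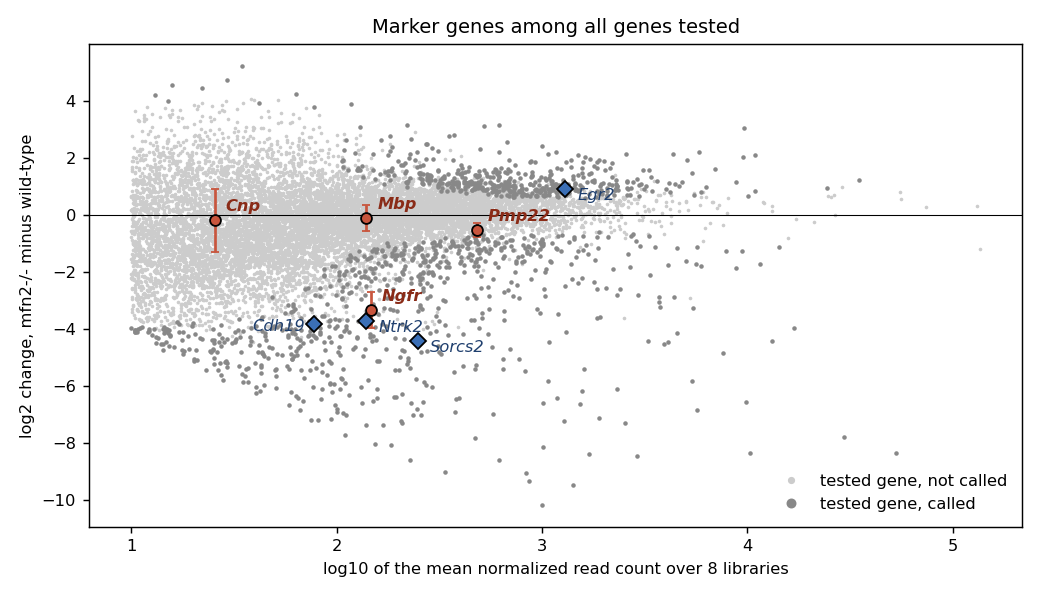
Log2 change between mfn2-/- and wild-type ASCs (vertical axis) against the log10 mean normalized read count over 8 libraries for the 11754 tested genes. Red circles with SE bars are the 4 tested marker genes, and blue diamonds are related genes of the text. Ngfr at -3.34 lies among the called genes, and Pmp22 (-0.54), Mbp (-0.12) and Cnp (-0.20) lie within the bulk.

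Other myelin and Schwann cell genes were read from lists to see how far they went with the 7. Counts of calls in these and the later lists stand beside 6.36% of all tested genes called lower and 3.99% called higher. Of 12 further genes of peripheral myelin, 7 were tested, 0 were called in either direction, and the median log2 change was -0.93. Drp2, which links the myelin sheath to its basal lamina, was the most abundant gene of this list at 1353 ± 495 and 1991 ± 453 and was not called (0.60, adjusted p 0.189). The adjusted p of Drp2 was 0.0446 without the shallowest library of each group and 0.000107 with library weights. The oligodendrocyte genes Mobp, Cldn11 and Gm98 (an older symbol of Myrf) did not reach the mean required for a test. The label of Schwann cell markers rests on Mbp, found in all libraries, and on Sox10 at a low level, with S100b at or below the limit of detection in 7 of 8 libraries.

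Of 20 further genes of the Schwann cell lineage 13 were tested, 1 was called lower, 1 higher and 11 were not called, with a median log2 change of -0.85. In this list, 10 of the 13 (76.9%) had a negative change, beside 55.8% of all tested genes. Cdh19, a cadherin of Schwann cell precursors and non-myelinating Schwann cells, was called lower. It went from 141 ± 55.8 to 14.5 ± 11.1 normalized reads (-3.84, SE 1.03, limma adjusted p 0.0323), with wild-type values of 72.8 to 209 and mfn2-/- values of 0 to 24.7. The call was lost in 6 of the alternatives, among them the fits without wild-type replicate 2, 3 or 4 or mfn2-/- replicate 2, where the adjusted p rose to between 0.0528 and 0.0988. Egr2, the transcription factor of the myelin program, which is also an early response gene in many cells, was called higher (892 ± 185 and 1704 ± 495, log2 change 0.91, adjusted p 0.0274). Egr2 missed the threshold when replicate 3 or 4 of the wild-type group or replicate 1 or 2 of the mfn2-/- group was left out (adjusted p 0.0806 to 0.0875), and without the trend (0.149).

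In the lineage list, Gfra3 and Fabp7 had 0 reads in all 4 mfn2-/- libraries, and they are named after their values were seen. Gfra3, a receptor subunit for artemin, held 40 reads in the wild-type group. Against the 3-read limit per library its mean was at least 2.72-fold lower in mfn2-/- ASCs. Fabp7 was found in 1 wild-type library with 8 reads.

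Ngfr acts with other receptors, and 2 of them were called lower as well. Of 15 further genes of neurotrophins and their receptors, 11 were tested, 2 were called lower and 0 higher, and the median log2 change was -0.71. Over all tested genes 6.36% were called lower and 3.99% higher. Sorcs2, a sortilin-related receptor that forms a complex with p75, went from 463 ± 46.1 to 33.5 ± 26.6 normalized reads (-4.44, SE 0.78, limma adjusted p 0.00296). Ntrk2, the receptor tyrosine kinase for brain-derived neurotrophic factor, went from 249 ± 93.9 to 27.6 ± 29.1 (-3.72, SE 0.77, adjusted p 0.00843). The wild-type and mfn2-/- values of Sorcs2 were 430 to 530 and 1.83 to 60.8, and those of Ntrk2 were 182 to 386 and 2.95 to 69.6, so neither gene's groups overlapped. The same held in the lower direction for 12.2% of all tested genes. Both calls held in every alternative run for these genes. The ligand gene Ntf5 had at most 2 reads in any library.

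Families of 4 of the 7 genes were read in the same way. Of the S100 family 7 of 12 genes in the table were tested, S100a10, the partner of annexin A2, was called higher (581 ± 107 and 1222 ± 311, log2 change 1.05, limma adjusted p 0.00956), and 6 were not called. The call of S100a10 was lost without the trend (adjusted p 0.0873). Emp1 (0.26) and Emp2 (0.28), relatives of Pmp22, were not called (adjusted p 0.472 and 0.504), and neither was the third tested relative. Of the 5 tested intermediate filament genes, Des, the filament of muscle, was called higher. It went from 2156 ± 888 to 7969 ± 2942 (1.91, adjusted p 0.00188). Prph, the filament of peripheral neurons, was called lower. It stood at 120.2 to 128 normalized reads in wild-type and at 0 to 4.74 in mfn2-/- libraries (-6.35, adjusted p 0.0017). Of the relatives of Sox10, Sox9 was called higher (1.00, adjusted p 0.0484), a call lost in 10 alternatives including the fits that left out replicate 2, 3 or 4 of the wild-type group or replicate 1, 2 or 3 of the mfn2-/- group (adjusted p 0.0502 to 0.142), and Sox8 was not called.

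Markers of other cells also differed between the groups. Of 9 fibroadipogenic markers, genes of the connective tissue progenitors of muscle, 7 were called lower, 0 higher and 2 were not called, with a median log2 change of -6.46. Their summed level was 147243 to 183974 normalized reads per wild-type library against 5131 to 9316 per mfn2-/- library. All 7 tenocyte markers were called lower (median -8.35), with sums of 36449 to 57916 and 306 to 407. One of these calls, Scx, was lost in 10 alternatives. Of 6 tested mural cell markers, Pdgfrb and Cspg4 were called lower and 4 were not called (median -1.10, sums of 3727 to 4688 and 2069 to 3472). Of 3 tested perineurial markers, Cldn1, a tight junction gene of the nerve sheath, was called lower (-3.97, adjusted p 0.0296, lost in 8 alternatives), and 2 were not called. Itgb4 changed by -1.43 (limma adjusted p 0.191) and Slc2a1, the most abundant of the list, by 0.93 (limma adjusted p 0.138). The list summed to 241 to 524 and 244 to 394, of which Slc2a1 averaged 143 ± 72.5 and 254 ± 53.2. No marker of these lists in the table was at 0 in all 8 libraries. The part of these cells in the change of Ngfr was not tested.

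Lists with no call were those of endothelium (7 tested with median 0.082, Tek 0.082 and Cdh5 0.47), macrophages (4 tested with median 0.76, Cd68 -0.28 and Itgam 1.00), adipocytes (2 tested, Fabp4 0.46 and Cidec 1.26) and melanocytes, which share Sox10 and S100b with Schwann cells (1 tested, Mitf -1.37). All these values are log2 changes with limma adjusted p of at least 0.213. The summed level of the 20 Schwann lineage genes was 3392 to 4743 normalized reads per wild-type library against 3160 to 4275 per mfn2-/- library, and that of the 12 peripheral myelin genes was 1368 to 2259 and 1532 to 2803, so both sums overlapped between the groups. A few abundant genes carried these sums. Without its 2 most abundant genes, of which Egr2 is one, the lineage list summed to 1049 to 1813 against 453 to 1059, ranges that overlapped by little, and without Drp2 the myelin list summed to 350.2 to 565 against 207 to 526.

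**Figure D3:**
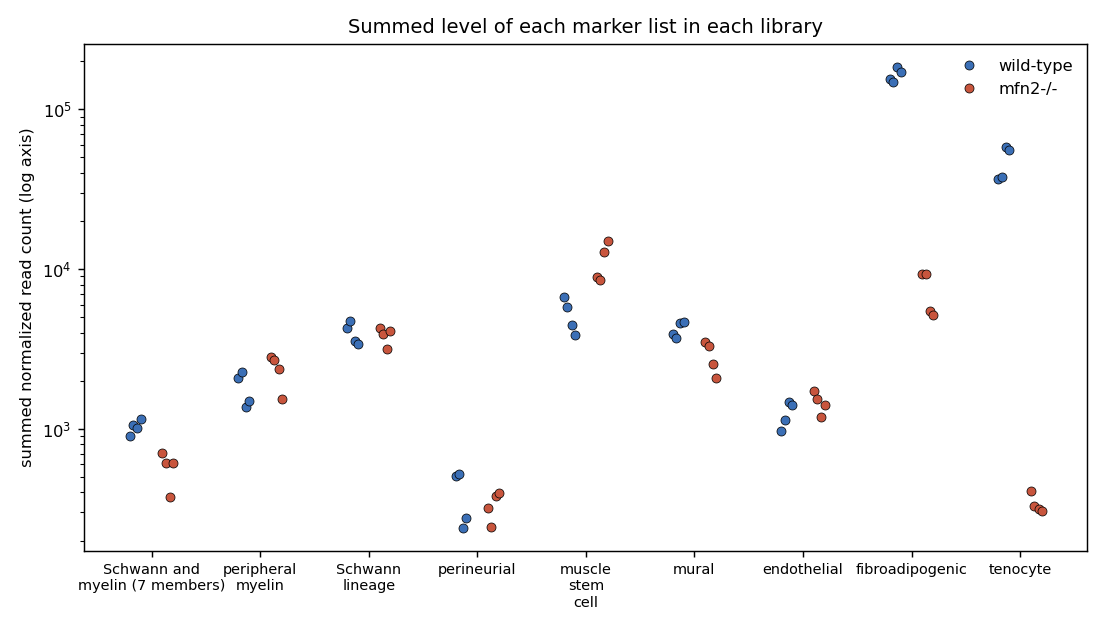
Summed normalized read count (log axis) of 9 marker lists in each wild-type and mfn2-/- library, 1 point per library. The 7 Schwann cell and myelin genes sum to 896 to 1160.3 in wild-type and 376 to 704 in mfn2-/- libraries. The fibroadipogenic, tenocyte and mural lists also lie lower in every mfn2-/- library than in any wild-type library. The muscle stem cell list does not overlap either and goes the other way, with 3865 to 6695 in wild-type and 8487 to 14915 in mfn2-/- libraries.

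The genes whose pattern across the 8 libraries was most like that of Ngfr, by Pearson r of log2(value + 1), were Gpc3 (r = 0.98), Atf7 (0.98) and Atp1b2 (0.98). Of these Gpc3, a heparan sulfate proteoglycan of the cell surface, was called lower (-5.84, limma adjusted p 0.00016), and the other two were not called. For Pmp22 the nearest genes were Ctsz (0.97), Zfp521 (0.96) and Cdc16 (0.95), for Mbp Nup155 (0.98), Btbd10 (0.97) and Wscd1 (0.96), and for Cnp Dynlt3 (0.97), Cyp20a1 (0.97) and Ptpre (0.97). Among the 4 tested marker genes themselves, Mbp and Pmp22 were the most alike (r = 0.74) and Mbp and Ngfr were unrelated (r = -0.017). These values describe 8 libraries that share 2 genotypes and differ in depth.

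**Figure D4:**
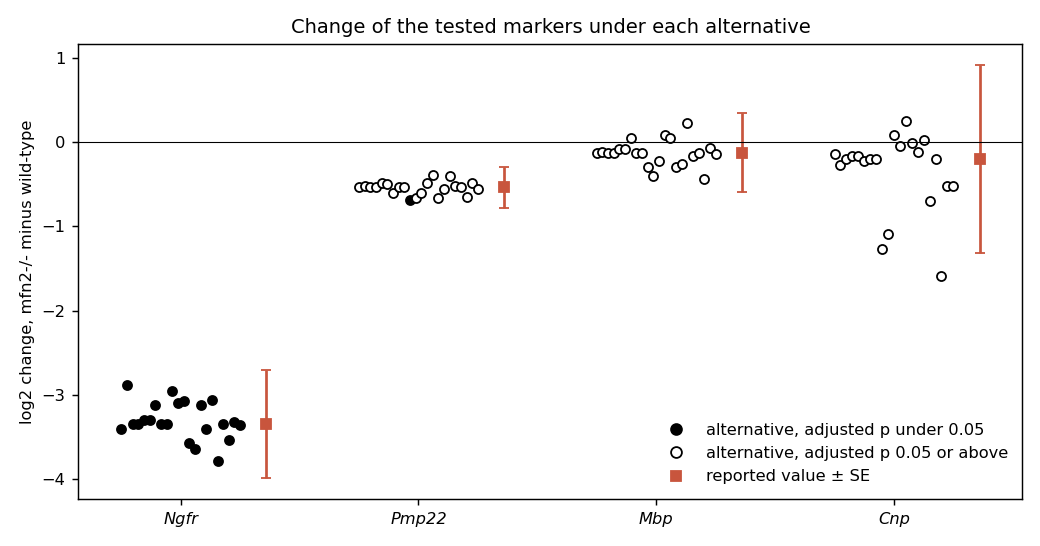
Log2 change between mfn2-/- and wild-type ASCs (vertical axis) of the 4 tested marker genes, with the reported value ± SE as a red square and each alternative as a circle, filled where the adjusted p was under 0.05. All circles of Ngfr are filled and lie between -3.79 and -2.88, 1 circle of Pmp22 is filled, and those of Mbp and Cnp lie on both sides of 0.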

How the data were processed

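Total RNA of sorted ASCs was sequenced from 4 wild-type and 4 mfn2-/- libraries, grouped by their titles. The authors deposited a signal per gene, normalized read counts in 1 table. The submitters' processing notes name Trim Galore, HISAT2, featureCounts, DESeq2 and mm9. Their versions and the gene annotation are not given in the sources used here. In each column 100% of values were whole multiples of 1 step (tolerance 0.01 of a read), so whole reads were recovered. Depth sets the precision, and 3 reads were taken as the limit of detection. Without molecular identifiers this limit covers counting error only.

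For genes with a mean of at least 10, limma 3.58.1 (R 4.3.3), with its trend option, was applied to log2(value + 1), two-sided, with Benjamini-Hochberg adjustment at 0.05. Fold changes on this scale understate the change of low genes. Single genes were also compared with exact permutation tests in Python 3.11.15. edgeR 4.0.16 on recovered reads called 1158 genes (9.85%), and DESeq2 1.42.0 called 1738 (14.9%). Other alternatives were pseudocounts of 0.1 and 10, filters, scalings, the replicate block, no trend, library weights, Y-linked reads as a term and each library left out. Gene positions and exon lengths come from GENCODE M21 (GRCm38), which is not the build named in the notes. The promoter comes from RefSeq. The members and lists were chosen with earlier results of these data known. Text names all 7 members, and from each list the genes called or, with none, the 2 most abundant. Other names were chosen after their values were seen. Same-numbered libraries did not deviate together. Some genes of the lists are not reported here.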

Additional observations from a re-analysis of the deposited data

Results flagged for a closer look

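For the 7 genes and their summed share, a library far from the other three of its group was looked for with Dixon's test at 95%. Of 16 groups of values 4 held such a library. The test flags about 1 in 20 groups of continuous values, here 0.8. That rate does not hold for tied zeros. In S100b of mfn2-/- and Gfap of wild-type ASCs all values but 1 were 0, so any library with reads was flagged. The 4 flags therefore cannot be read as an excess over 0.8. Cnp stood at 49.5 normalized reads (27 whole reads) in mfn2-/- replicate 4, against 10.3 to 14.2 in the other mfn2-/- libraries. S100b in mfn2-/- replicate 2 was 1.58 normalized reads, which is 2 reads, with 0 in the other three. Gfap was 6.94 in wild-type replicate 4 (13 reads), with 0 in the other wild-type libraries, and 3.95 in mfn2-/- replicate 2 (5 reads), with 0 to 0.667 in the other mfn2-/- libraries. None of these values passed a test between the groups.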

How the results depend on the processing

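Ngfr stayed called lower in all 22 alternatives. Mbp reversed to 0.051 with quantile normalization, which moved the median of all tested genes from -0.16 to 0.13. Leaving out single libraries gave Mbp -0.40 to 0.22 (positive without wild-type replicate 3 or 4 or mfn2-/- replicate 3), Cnp -1.09 to 0.25 (positive without wild-type replicate 2 or 4 or mfn2-/- replicate 3), Pmp22 -0.66 to -0.39, Sox10 -2.56 to -0.96 (lowest without wild-type replicate 1), S100b -1.59 to -0.63 and Gfap -0.50 to 0.76. Gfap was -0.047 with a pseudocount of 10. With library weights (0.167 for mfn2-/- replicate 4 to 3.75 for mfn2-/- replicate 2) Pmp22 changed by -0.68 and was called, making 2 of the 7 genes lower, and 3037 genes were called (1639 lower, 1398 higher). Without the trend 633 were called, 113 of them higher. Leaving out single libraries gave 670 to 1307 genes, 435 to 837 lower and 235 to 470 higher. Without wild-type replicate 3 there were 670 and without wild-type replicate 4 749, and fewer libraries enter those fits.

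Counts in the lists moved as follows. Leaving out single libraries gave 0 to 3 lineage genes lower and 0 to 1 higher, 0 to 1 SoxE genes lower and 0 to 1 higher, 0 to 2 perineurial genes lower and 0 to 1 muscle stem cell genes lower. A pseudocount of 0.1 gave 0 lineage genes lower, 0 SoxE genes higher and 0 perineurial genes lower, and a pseudocount of 10 gave 1 SoxE gene lower. No filter gave 0 SoxE genes higher and 0 perineurial genes lower, and a mean of at least 50 gave 0 perineurial genes and left Cnp, Itgam, Cldn1, Cidec, Cd68 and Mitf untested. Quantile normalization gave 1 neurotrophin gene higher, 0 SoxE genes higher and 1 muscle stem cell gene lower. Without the shallowest library of each group, chosen after seeing the data, 1 peripheral myelin gene was higher, 2 lineage genes were lower and 1 SoxE gene was lower. edgeR gave 1 SoxE gene lower. DESeq2 gave 3 lineage genes lower, 1 neurotrophin gene higher, 1 SoxE gene lower and 1 muscle stem cell gene lower. The causes were not tested.

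Among named genes of other lists, none of which was called here, Tek reversed to -0.085 with library weights, -0.12 without mfn2-/- replicate 4 and -0.043 without the shallowest libraries. Cidec reversed to -0.43, -0.37 and -0.49 in the same order, and Fabp4 to -0.36 without wild-type replicate 2. Cd68 became positive with a pseudocount of 10 (0.089), quantile normalization (1.34), library weights (1.79), without wild-type replicate 1 (0.33), without mfn2-/- replicate 4 (1.06), without the shallowest libraries (1.66), with edgeR (0.26) and with DESeq2 (0.11). Leaving out single libraries gave ranges of -0.12 to 0.20 for Tek, -0.85 to 1.06 for Cd68, -0.36 to 1.02 for Fabp4, -0.37 to 1.80 for Cidec, -2.52 to -0.10 for Mitf, 0.43 to 1.83 for Itgam and 0.030 to 0.74 for Cdh5.

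With the replicate number as a block Ngfr kept its call (limma adjusted p 0.0127), and 1043 genes were called. The correlations of same-numbered deviations were -0.035, -0.053, 0.038 and -0.11, and 0 of 4 wild-type libraries correlated best with their own number. Correlations this weak show no pairing by number but cannot decide whether libraries were prepared in pairs. The block ended the call of Cldn1 (adjusted p 0.0659).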
